A study of Homo sapiens with 35 samples.

Results

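Collagen alpha chain genes were taken as the entries of the RNA sequencing count table whose name is COL, a number, A and a number, which is how human collagen chains are named. The table lists 44 such genes among 28503 genes, and 26 of them had a mean count of 10 or more over the 6 libraries. The other 18 had a lower mean, and 2 of these (COL9A1 and COL22A1) had no fragment in any library. All libraries came from DU145, an established human line of prostate cancer cells from a metastasis in the brain, and no further alteration is given for the cells. The groups were cells with a short hairpin RNA against ZMYND8 (shZMYND8), cells with one against JARID1D (shJARID1D), and control cells with one against luciferase (shLuciferase), with 2 libraries in each group. The table names the shZMYND8 columns Rac7_KO, and reading them as shZMYND8 rests on the assumption that Rac7 means RACK7, a second name of ZMYND8 in an antibody label. ZMYND8 is a reader of modified histone tails, and JARID1D, encoded by the Y-linked gene KDM5D, is a histone demethylase. The number of hairpins or clones behind each group, the time after knockdown and whether the 2 libraries came from separate cultures are not stated in the labels, so p-values reflect library-to-library spread that may be technical only.

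Collagens are extracellular proteins built from alpha chains that wind around each other into a rope-like helix. Fibrillar collagens form the cables of connective tissue, collagen IV forms the sheet under epithelia called the basement membrane, and other classes coat fibrils, anchor cells or span the cell membrane. A tumour cell of epithelial origin meets collagen IV at its base and fibrillar collagen once it has crossed that sheet, and it can make chains of either kind itself.

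The deposited counts summed to 22925611 to 25001300 per library, made from 20.7 M to 27.4 M fragments. Levels are given as CPM, counts per 1000000 counts of a library after scaling for library composition. A count of 0 allows up to 3 fragments, or 0.114 to 0.149 CPM depending on the library, for counting error only. Of the targeted genes, ZMYND8 had 35.5 and 33.2 CPM in shZMYND8 and 64.7 and 52.7 CPM in shLuciferase (adjusted p = 0.00491, but 0.0581 without shZMYND8 replicate 2, and up to 0.0581 over all alternatives). KDM5D had 19.6 and 17.9 CPM in shJARID1D and 58.1 and 61.0 CPM in shLuciferase (adjusted p = 0.000831). All 6 markers of a prostate carcinoma line (KRT8, KRT18, KRT19, EPCAM, CDH1 and VIM) were expressed in every library, but not at the same level. EPCAM had 6.9 and 5.84 CPM in shZMYND8 and 21.0 and 19.8 CPM in shLuciferase (3.2-fold lower, adjusted p = 0.000546). KRT19 was 2.23-fold lower (adjusted p = 0.00184) and CDH1 2.02-fold higher (adjusted p = 0.013) in shZMYND8 than in shLuciferase, and KRT8 and KRT18 were 1.82-fold and 1.59-fold lower in shJARID1D than in shLuciferase (adjusted p = 0.0465 and 0.0349). The part of these markers in the collagen results was not tested. In bulk libraries such as these, fewer cells expressing a gene and less of its RNA per cell cannot be told apart.

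Collagen IV chain genes lie in pairs that point away from each other and share a start region, so their sequence is shown first. RefSeq start windows (250 bases before to 50 bases after the start, GRCh38.p14) were found for 32 of the 44 genes. For 3 collagen IV genes the window overlaps that of the partner, and capitals mark the overlap. The COL4A1 window is chr13:110307108-110307407 on the minus strand and shares 226 of its 300 bases with the COL4A2 window. The COL4A4 window is chr2:227164156-227164455 on the minus strand and shares 82 bases with that of COL4A3. The COL4A5 window is chrX:108439588-108439887 on the plus strand. COL4A6 has 2 windows, and the COL4A5 window shares 121 bases with the one that overlaps it most.
COL4A1: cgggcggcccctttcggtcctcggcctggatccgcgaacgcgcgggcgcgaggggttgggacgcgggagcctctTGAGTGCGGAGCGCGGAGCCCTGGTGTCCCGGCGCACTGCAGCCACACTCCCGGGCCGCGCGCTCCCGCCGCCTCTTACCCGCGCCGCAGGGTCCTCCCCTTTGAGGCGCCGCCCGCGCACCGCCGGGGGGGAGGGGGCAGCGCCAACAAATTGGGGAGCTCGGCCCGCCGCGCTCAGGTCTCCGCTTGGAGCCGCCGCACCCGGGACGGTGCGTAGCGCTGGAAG
COL4A4: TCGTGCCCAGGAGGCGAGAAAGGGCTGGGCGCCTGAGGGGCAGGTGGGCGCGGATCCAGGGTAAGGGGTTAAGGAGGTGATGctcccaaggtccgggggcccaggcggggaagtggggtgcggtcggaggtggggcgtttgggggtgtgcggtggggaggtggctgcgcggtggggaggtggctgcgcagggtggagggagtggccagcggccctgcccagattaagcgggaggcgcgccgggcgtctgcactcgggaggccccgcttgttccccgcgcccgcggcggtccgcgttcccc
COL4A5: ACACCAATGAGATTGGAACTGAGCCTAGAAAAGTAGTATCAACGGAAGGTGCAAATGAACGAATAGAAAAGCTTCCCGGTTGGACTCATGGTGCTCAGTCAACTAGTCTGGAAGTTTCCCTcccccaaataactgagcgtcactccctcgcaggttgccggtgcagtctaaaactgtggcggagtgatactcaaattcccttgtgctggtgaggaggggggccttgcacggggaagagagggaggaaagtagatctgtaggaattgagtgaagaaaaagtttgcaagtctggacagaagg
The starts of COL4A1 and COL4A2 lie 127 bases apart, those of COL4A4 and COL4A3 419 and those of COL4A5 and COL4A6 380, with the start of that COL4A6 window. The GC content was 76.7% in the COL4A1 window, 74% in the COL4A4 window and 49.3% in the COL4A5 window, and the median over all 35116 RefSeq windows was 58.7%. Motifs were searched as exact letters on both strands. The COL4A1 window held a GC box (GGGCGG) at 2 places and CCAAT at 1, the COL4A5 window held CCAAT at 2, and the COL4A4 window held neither.

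In shZMYND8 the partners of 2 of these pairs were measured high enough to compare, and the third pair was measured through COL4A5 alone. COL4A1 and COL4A2, whose chains together form the collagen IV network present in most basement membranes, both rose. COL4A1 had 212 and 250 CPM in shZMYND8, against 55.5 and 74.5 CPM in shLuciferase (log2 fold change 1.83 ± 0.17, SE, or 3.55-fold, adjusted p = 0.00045). COL4A2 had 191 and 214 CPM in shZMYND8, against 75.0 and 107 CPM in shLuciferase (1.15 ± 0.17, 2.22-fold, adjusted p = 0.00227). Neither gene's groups overlapped, and both genes passed the threshold under all alternatives run. Whether the fold changes of these partners differ from each other was not tested. COL4A2-AS1, an antisense entry at COL4A2, was at 0 in all libraries.

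**Figure D1:**
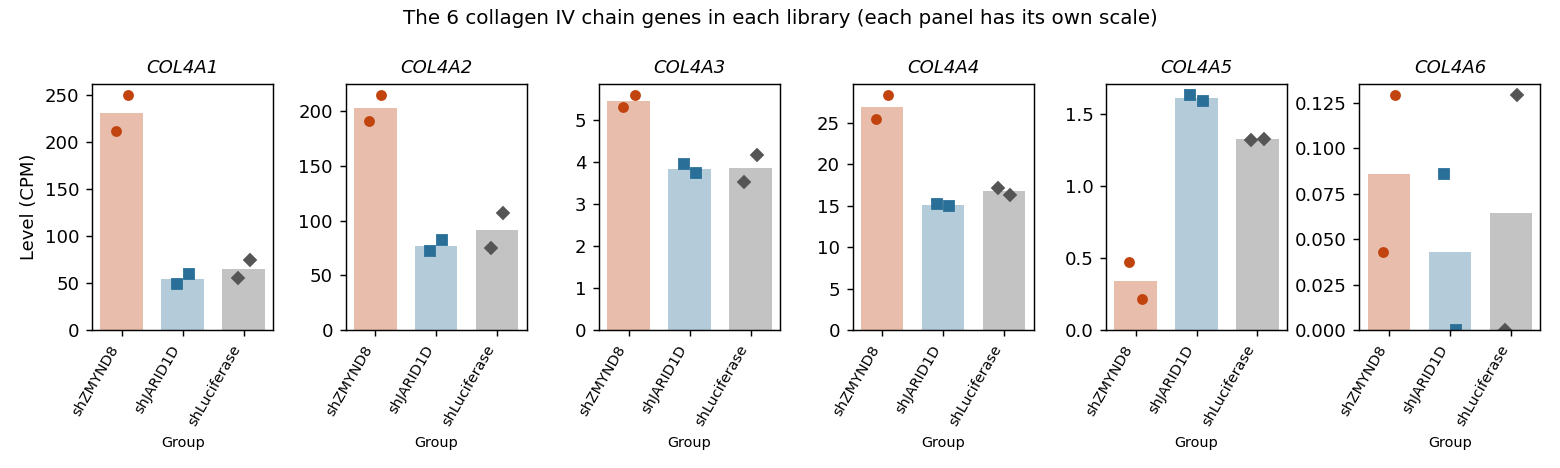
Levels of the 6 collagen IV chain genes (CPM, vertical axis, with a separate scale in each panel from 0) in shZMYND8, shJARID1D and shLuciferase. Points are libraries and bars are means of 2 libraries. COL4A1, COL4A2, COL4A3 and COL4A4 were highest in shZMYND8, though COL4A3 did not pass the threshold. COL4A5 was lowest in shZMYND8, and COL4A6 stayed at or below 0.129 CPM in every library.

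COL4A3, COL4A4 and COL4A5 encode chains that join into a second network, best known from the filtration barrier of the kidney. COL4A4 rose, with 25.4 and 28.3 CPM in shZMYND8 and 17.2 and 16.3 CPM in shLuciferase (0.68 ± 0.13, 1.61-fold, adjusted p = 0.00714). Its partner COL4A3 had 5.31 and 5.58 CPM in shZMYND8 and 3.53 and 4.16 CPM in shLuciferase, with no overlap, but did not pass the threshold (0.50 ± 0.21, adjusted p = 0.13). COL4A5 went the other way. It had 12 and 6 fragments (0.471 and 0.215 CPM) in shZMYND8, against 30 and 31 fragments (1.32 and 1.33 CPM) in shLuciferase (-1.93 ± 0.44, adjusted p = 0.0168). COL4A6 had at most 3 fragments in a library and was not tested. Without shZMYND8 replicate 2 the adjusted p was 0.0804 for COL4A4 (0.00169 to 0.0804 over all alternatives) and 0.139 for COL4A5 (0.0108 to 0.139).

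Over all collagen genes, 11 of the 26 tested rose in shZMYND8, where 8.89% of the 15867 genes tested rose. A further 2 fell, COL4A5 and COL13A1, where 7.34% of all genes fell, and 13 did not pass the threshold. In either direction 16.2% of all genes passed. The log2 fold change was above 0 for 22 of the 26, with a median of 0.64 (-0.01 over all genes tested). These 22 include COL3A1, COL10A1 and COL24A1 (1.61, 0.34 and 0.77), which did not pass the threshold. They reached the level used to keep genes for testing in both libraries of shZMYND8 only, so their direction is no independent result. The median of 0.64 includes them and was not computed without them. Together the 44 genes held 0.132% and 0.138% of the counts in shZMYND8 and 0.066% and 0.0813% in shLuciferase. Without either shZMYND8 library fewer collagen genes rose, and fewer of all genes tested rose as well. COL4A1, COL4A2, COL5A2 and COL16A1 passed under every alternative run.

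**Figure D2:**
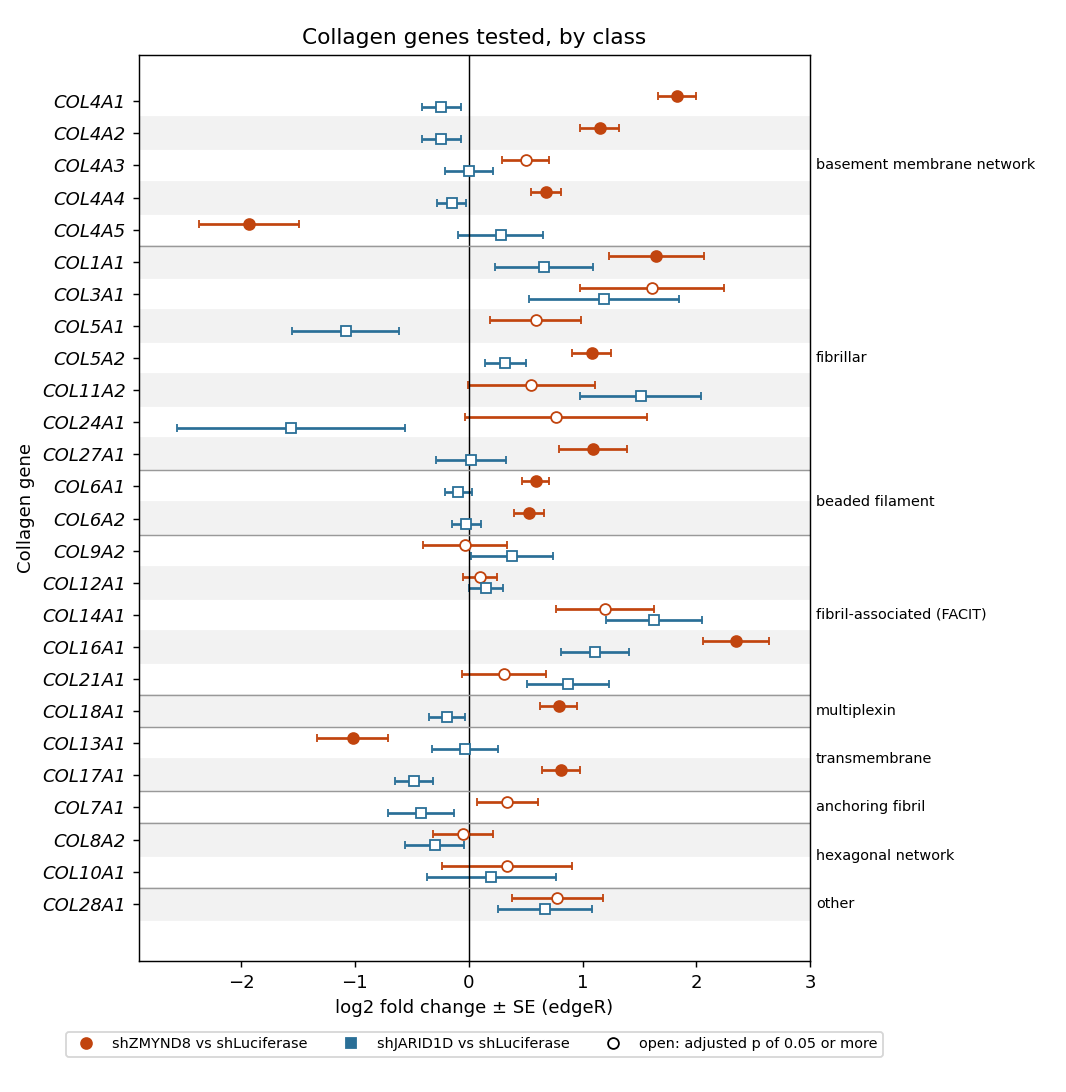
Log2 fold changes from edgeR (horizontal axis) of the 26 collagen genes tested, grouped by class, in shZMYND8 (circles) and in shJARID1D (squares), each against shLuciferase. Bars are the SE derived from the F statistic of the test. Filled symbols passed an adjusted p of 0.05: 11 higher and 2 lower in shZMYND8, and none in shJARID1D.

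Of the 11 genes for fibrillar chains, 7 were tested, 3 rose (COL1A1, COL5A2 and COL27A1) and none fell (median log2 fold change 1.08). COL5A2, a chain of the collagen that starts and narrows fibrils, had 20.6 and 25.4 CPM in shZMYND8, against 9.32 and 12.5 CPM in shLuciferase (1.08 ± 0.17, 2.11-fold, adjusted p = 0.00364). COL1A1, the main chain of collagen I, the commonest fibril collagen of bone and skin, had 4.46 and 4.12 CPM in shZMYND8, against 1.79 and 0.942 CPM in shLuciferase (1.65 ± 0.42, adjusted p = 0.026). COL27A1, a fibrillar chain best known from cartilage, had 6.38 and 7.47 CPM in shZMYND8, against 2.21 and 4.28 CPM in shLuciferase (1.09 ± 0.30, adjusted p = 0.0345). In each of these genes both shZMYND8 libraries lay above both shLuciferase libraries. COL1A2, whose chain joins that of COL1A1 in collagen I, was not tested, with 2 and 12 fragments in shZMYND8 and 0 and 3 in shLuciferase.

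The calls for COL1A1 and COL27A1 were lost in some fits, among them the fit with no filter (adjusted p = 0.0637 and 0.0741). COL1A1 had an adjusted p of 0.136 without shZMYND8 replicate 1, 0.103 without shZMYND8 replicate 2 and 0.0756 without shLuciferase replicate 2 (0.00315 to 0.136 over all alternatives). COL27A1 had 0.115 and 0.188 without shZMYND8 replicates 1 and 2 and 0.0843 without shLuciferase replicate 1 (0.00397 to 0.188), with log2 fold changes of 1.20, 0.97 and 0.69. The summed level of 9 fibroblast and stroma markers was 52.0 to 52.6 CPM in shZMYND8 and 30.2 to 39.2 CPM in shLuciferase. In shJARID1D it was lower, at 22.4 to 24.3 CPM, where COL1A1, COL5A2 and COL27A1 had log2 fold changes of 0.66, 0.32 and 0.02. DCN, which encodes decorin of connective tissue, was at 0 in all libraries, LUM reached at most 0.0428 CPM, PDGFRA and THY1 at most 0.129 and FAP at most 0.214. The other 4 of the 9 markers were tested, and none passed in shZMYND8 although all had log2 fold changes above 0. Of these, PDGFRB reached the level used to keep genes for testing in both libraries of shZMYND8 only, so its direction is no independent result. PDGFRB had 0.471 and 0.859 CPM in shZMYND8 and 0.298 and 0.0428 CPM in shLuciferase (1.93 ± 0.72, adjusted p = 0.0999), and the log2 fold change was 0.61 for ACTA2 (adjusted p = 0.308) and 0.28 for S100A4 (adjusted p = 0.324). Most of the sum in shZMYND8 and shLuciferase was TAGLN, an actin-binding protein, with 35.9 and 39.5 CPM in shZMYND8 and 17.8 and 29.0 CPM in shLuciferase (adjusted p = 0.0542). TAGLN had 8.78 and 11.4 CPM in shJARID1D (2.31-fold lower than in shLuciferase, adjusted p = 0.02).

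**Figure D3:**
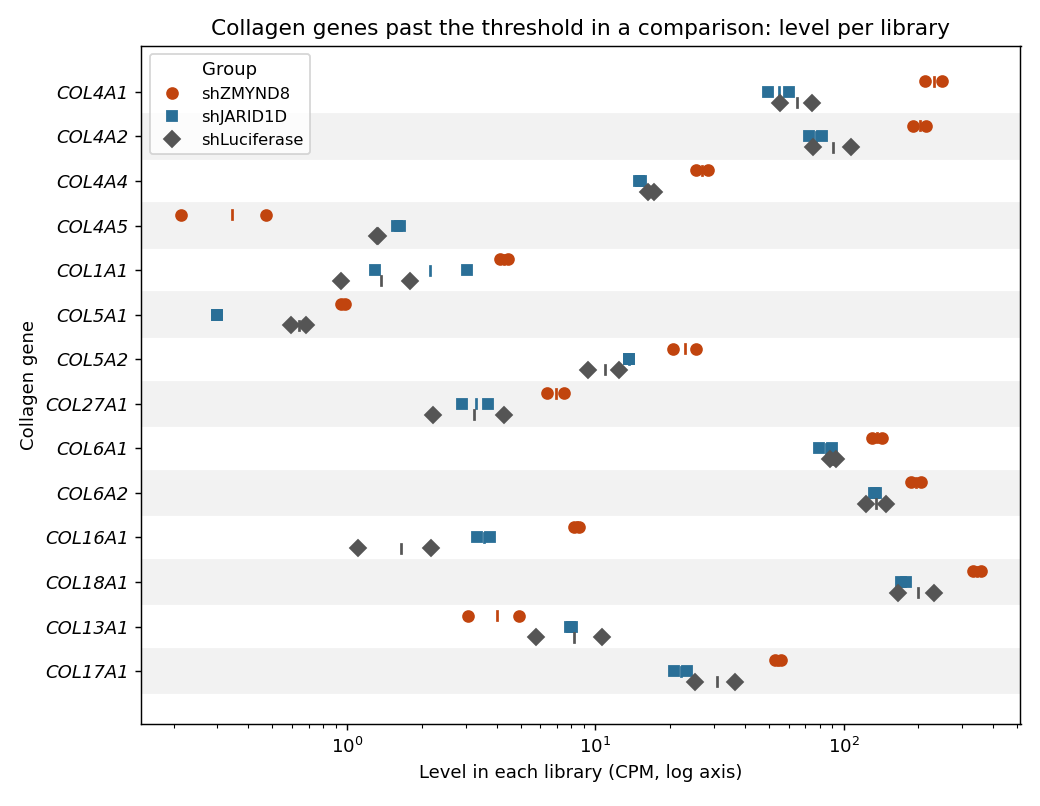
Level in each library (CPM, log axis) of the 14 collagen genes that passed an adjusted p of 0.05 in at least 1 comparison. Symbols are libraries and ticks are group means: in 12 of the genes the shZMYND8 libraries are the highest, and in COL4A5 and COL13A1 they are the lowest.

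COL6A1 and COL6A2, neighbours on chromosome 21, encode chains of collagen VI, which forms beaded filaments near basement membranes, and both rose. COL6A1 had 143 and 130 CPM in shZMYND8, against 87.8 and 93.3 CPM in shLuciferase (0.59 ± 0.12, 1.51-fold, adjusted p = 0.00994). COL6A2 had 204 and 186 CPM in shZMYND8, against 123 and 148 CPM in shLuciferase (0.53 ± 0.13, 1.44-fold, adjusted p = 0.0205). No library of the control reached the level of the knockdown in either gene. COL6A3, COL6A5 and COL6A6, which encode alternative partners of these chains, had at most 4 fragments in any library and were not tested. Without shZMYND8 replicate 1 the adjusted p was 0.111 for COL6A1 (0.000316 to 0.111 over all alternatives) and 0.171 for COL6A2 (0.00184 to 0.171), and without shZMYND8 replicate 2 it was 0.0787 for COL6A2.

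The largest log2 fold change among the 26 genes in shZMYND8 was that of COL16A1, a chain of the fibril-associated class, which sits on the surface of fibrils and links them to other matrix. It had 8.61 and 8.2 CPM in shZMYND8, against 1.11 and 2.18 CPM in shLuciferase (2.35 ± 0.29, 5.10-fold, adjusted p = 0.0011). COL16A1 was the member that passed of 5 tested in a class of 10. COL12A1, which binds along collagen I fibrils, had 78.1 and 101 CPM in shZMYND8 and 83.3 and 83.6 CPM in shLuciferase, so its groups overlapped (0.10 ± 0.15, adjusted p = 0.708). COL14A1, a close relative of COL12A1, had 5.61 and 4.12 CPM in shZMYND8 and 2.98 and 1.24 CPM in shLuciferase (1.20 ± 0.43, adjusted p = 0.085, and 0.0149 without shLuciferase replicate 1, with 0.00429 to 0.363 over all alternatives). Its groups did not overlap, but its libraries of the same group differed widely.

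COL18A1 and COL17A1, both components of the zone where an epithelial cell meets its basement membrane, rose. COL18A1, a basement membrane proteoglycan whose end piece is released as endostatin, had 332 and 356 CPM in shZMYND8, against 166 and 232 CPM in shLuciferase (0.79 ± 0.16, 1.73-fold, adjusted p = 0.00897). The strandedness of the libraries is not given, and an antisense entry at this gene, COL18A1-AS1, had 0.728 and 1.16 CPM in shZMYND8 and 0.298 and 0.900 CPM in shLuciferase, so reads of the 2 entries cannot be told apart. COL17A1, a membrane-spanning chain of hemidesmosomes, the rivets that hold epithelial cells to the basement membrane, had 52.8 and 55.8 CPM in shZMYND8, against 25.2 and 36.5 CPM in shLuciferase (0.81 ± 0.17, 1.76-fold, adjusted p = 0.0112). Both shZMYND8 libraries stood above both controls in either gene. Without shZMYND8 replicates 1 and 2 the adjusted p was 0.0559 and 0.0719 for COL18A1 (2.03e-05 to 0.0719 over all alternatives), and 0.0696 and 0.083 for COL17A1 (0.000302 to 0.083).

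COL13A1, the other membrane-spanning chain tested, found at sites of cell adhesion, fell. It had 3.08 and 4.94 CPM in shZMYND8, against 5.75 and 10.6 CPM in shLuciferase (-1.02 ± 0.31, 2.03-fold lower, adjusted p = 0.0491). The groups did not overlap, but the call was lost in 12 of the 17 alternative fits, with adjusted p of 0.00438 to 0.303. The log2 fold change was -0.52 (adjusted p = 0.219) without shLuciferase replicate 2, the control library with the higher level, and -0.73 (adjusted p = 0.303) without shZMYND8 replicate 1. Leaving out shZMYND8 replicate 2 gave 0.0687, and leaving out either shJARID1D library gave 0.0649 or 0.063.

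The 13 tested genes that did not pass in shZMYND8 included COL7A1, which encodes the anchoring fibrils that tie a basement membrane to the tissue beneath, with 2.96 and 3.61 CPM in shZMYND8 and 2.13 and 3.04 CPM in shLuciferase. COL8A2 and COL10A1, which encode chains of open hexagonal nets, had log2 fold changes of -0.05 and 0.34. COL3A1, a fibrillar chain of soft tissue, had 18 and 16 fragments in shZMYND8 and 4 and 6 in shLuciferase (1.61 ± 0.63, adjusted p = 0.112). COL24A1 differed widely between libraries of the same group, with 1.32 and 0.0857 CPM in the 2 shLuciferase libraries. COL3A1, COL10A1 and COL24A1 reached the level used to keep genes for testing (0.427 CPM) in both libraries of shZMYND8 only. Of the 18 genes not tested, none had more than 12 fragments in a library and 13 lacked fragments in at least 1 library.

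In shJARID1D no collagen gene passed the threshold in edgeR, where 2.96% of all genes rose and 2.79% fell, and 5.75% passed in either direction. At an unadjusted p under 0.05, 4 were higher and 2 lower, and the share over all genes at that threshold was not computed. DESeq2 called 2 higher and none lower, where 585 of all 15867 genes were higher and 774 lower. With limma voom none was called, where 405 of all genes were higher and 414 lower. The median log2 fold change of the 26 was 0.01, and 13 were above 0. The collagen genes together held 0.0737% and 0.0736% of the counts in shJARID1D, between the values of the 2 shLuciferase libraries. COL4A1 had 49.8 and 60.3 CPM in shJARID1D and 55.5 and 74.5 CPM in shLuciferase (-0.24 ± 0.17, adjusted p = 0.427), and its groups overlapped. COL4A2 had 72.6 and 81.9 CPM in shJARID1D and 75.0 and 107 CPM in shLuciferase (-0.24 ± 0.17, adjusted p = 0.428, and 0.0399 without shLuciferase replicate 1, with 0.0399 to 0.889 over all alternatives).

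The following chains did not pass in shJARID1D either. COL4A3 had 3.94 and 3.73 CPM in shJARID1D and 3.53 and 4.16 CPM in shLuciferase, and COL4A4 had 15.2 and 15.0 CPM in shJARID1D and 17.2 and 16.3 CPM in shLuciferase. COL4A5 had 1.63 and 1.59 CPM in shJARID1D and 1.32 and 1.33 CPM in shLuciferase (0.28 ± 0.37, adjusted p = 0.69). None of these collagen IV genes passed, and COL4A3 overlapped between the groups. COL5A2 had 13.6 CPM in both shJARID1D libraries and 9.32 and 12.5 CPM in shLuciferase (0.32 ± 0.18, adjusted p = 0.313), and COL27A1 had 3.68 and 2.91 CPM in shJARID1D and 2.21 and 4.28 CPM in shLuciferase. COL5A1 had 0.3 CPM in both shJARID1D libraries and 0.596 and 0.685 CPM in shLuciferase (-1.08 ± 0.47, adjusted p = 0.199). The groups of COL5A1 and COL5A2 did not overlap, and those of COL27A1 did. COL6A1 had 90.0 and 79.9 CPM in shJARID1D and 87.8 and 93.3 CPM in shLuciferase, and COL6A2 had 135 and 132 CPM in shJARID1D and 123 and 148 CPM in shLuciferase. COL12A1 had 83.1 and 102 CPM in shJARID1D and 83.3 and 83.6 CPM in shLuciferase (0.15 ± 0.15, adjusted p = 0.593). The groups overlapped in each of these last 3 genes.

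COL14A1, COL16A1 and COL17A1 were among the genes whose groups did not overlap in shJARID1D. COL14A1 had 8.74 and 4.37 CPM in shJARID1D and 2.98 and 1.24 CPM in shLuciferase (1.63 ± 0.42, adjusted p = 0.0531). COL16A1 had 3.34 and 3.77 CPM in shJARID1D and 1.11 and 2.18 CPM in shLuciferase (1.11 ± 0.30, adjusted p = 0.0615). COL17A1 had 20.7 and 23.5 CPM in shJARID1D and 25.2 and 36.5 CPM in shLuciferase (-0.48 ± 0.17, adjusted p = 0.131). Each of them passed the threshold once a control library was left out: COL14A1 had an adjusted p of 0.0103 and COL17A1 of 0.00798 without shLuciferase replicate 1, and COL16A1 of 0.0118 without shLuciferase replicate 2. Over all alternatives the adjusted p was 0.00234 to 0.328 for COL14A1, 0.0118 to 0.219 for COL16A1 and 0.00798 to 0.502 for COL17A1. The comparisons of shZMYND8 and of shJARID1D share their control libraries, so their fold changes are not independent.

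The 2 knockdowns were also set against each other directly. This comparison shares the libraries of each knockdown with the comparisons against shLuciferase, so its results are not independent of those. With shZMYND8 over shJARID1D, 11 of the 26 collagen genes were higher, where 8.67% of all genes were higher. COL4A5 was lower, where 7.02% of all genes were lower, and 15.7% passed in either direction. Of all genes called in this comparison 55.3% were higher, and 45% with library totals as the only scaling. COL4A1 had 212 and 250 CPM in shZMYND8, against 49.8 and 60.3 CPM in shJARID1D (2.07 ± 0.17, 4.19-fold, adjusted p = 0.00034). COL17A1 had 52.8 and 55.8 CPM in shZMYND8, against 20.7 and 23.5 CPM in shJARID1D (1.29 ± 0.17, 2.45-fold, adjusted p = 0.00207). COL18A1 had 332 and 356 CPM in shZMYND8, against 170 and 179 CPM in shJARID1D (0.98 ± 0.16, 1.97-fold, adjusted p = 0.00423). These 3 genes and COL4A2 (1.39 ± 0.17, adjusted p = 0.00136) passed in every alternative fit and at an adjusted p of 0.01, but COL18A1 missed a log2 fold change of 1.

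The other genes higher in shZMYND8 than in shJARID1D were COL4A4, COL5A1, COL5A2, COL6A1, COL6A2, COL16A1 and COL27A1, with log2 fold changes of 0.55 to 1.67. COL16A1, with 8.61 and 8.2 CPM in shZMYND8 and 3.34 and 3.77 CPM in shJARID1D, differed by 1.24 ± 0.27 (adjusted p = 0.0155, and 0.0738 to 0.101 without any 1 of these 4 libraries). COL5A1, the partner of COL5A2 in collagen V, had 25 and 25 fragments in shZMYND8 and 7 and 6 in shJARID1D (1.67 ± 0.45, adjusted p = 0.0344, and 0.164 to 0.179 without any 1 of these 4 libraries, 0.123 with DESeq2 and 0.0508 with no filter). COL4A5 had 12 and 6 fragments in shZMYND8 and 38 and 32 in shJARID1D (-2.21 ± 0.44, adjusted p = 0.0103, and 0.053 to 0.101 without shZMYND8 replicate 2 or either shJARID1D library). COL13A1 had 3.08 and 4.94 CPM in shZMYND8 and 7.88 and 8.06 CPM in shJARID1D, and missed the threshold (-0.99 ± 0.31, adjusted p = 0.0559, with 0.00797 to 0.3 over all alternatives). Without 1 library of shZMYND8 or shJARID1D, fewer collagen genes were higher, and fewer of all genes tested were higher as well. COL1A1 had 4.46 and 4.12 CPM in shZMYND8 and 3.04 and 1.29 CPM in shJARID1D, and did not pass (0.99 ± 0.40, adjusted p = 0.12).

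A collagen chain is modified by enzymes in the endoplasmic reticulum, trimmed, cross-linked outside the cell and bound by receptors, and genes for these steps were read in the same fit. Of 19 enzymes and chaperones that modify and fold chains, all tested, 7 rose in shZMYND8 and 1 fell (median log2 fold change 0.32, against -0.01 over all genes). Over all 15867 genes tested 8.89% rose and 7.34% fell in this comparison, beside which the counts of each list below stand. COLGALT2, which adds galactose to hydroxylysine, had 9.08 and 11 CPM in shZMYND8, against 4.22 and 3.34 CPM in shLuciferase (1.41 ± 0.24, adjusted p = 0.00415). FKBP14, a prolyl isomerase of the endoplasmic reticulum, had 61.9 and 68.4 CPM in shZMYND8, against 34.8 and 31.1 CPM in shLuciferase (0.98 ± 0.14, adjusted p = 0.00222). The member that fell was FKBP10, a related chaperone needed for the cross-linking of collagen I. FKBP10 had 10.5 and 9.88 CPM in shZMYND8, against 24.1 and 25.0 CPM in shLuciferase (-1.27 ± 0.13, 2.41-fold lower, adjusted p = 0.000562).

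Of 8 procollagen processing genes tested, BMP1, PCOLCE2 and FURIN rose and none fell. ADAMTS2, which trims procollagen, also passed (adjusted p = 0.0194), but it entered the test only through shZMYND8, with 0.6 and 1.2 CPM there and 0.0426 and 0.171 CPM in shLuciferase. Its adjusted p was 0.0594 and 0.181 without shZMYND8 replicates 1 and 2 and 0.076 without shLuciferase replicate 1. Without ADAMTS2 and ADAMTS3, which reached the filter level in both libraries of at most 1 group, 3 of 6 rose (median 0.43). PCOLCE2, which speeds the removal of the end piece of procollagen, had 71.8 and 50.8 CPM in shZMYND8, against 34.2 and 29.6 CPM in shLuciferase (0.94 ± 0.17, adjusted p = 0.0056, and 0.0651 without shZMYND8 replicate 1). Of 5 lysyl oxidases, which cross-link collagen, LOXL2 rose (median 0.30), with 551 and 558 CPM in shZMYND8, against 299 and 374 CPM in shLuciferase (0.72 ± 0.14, adjusted p = 0.0093). LOXL2 did not pass without either shZMYND8 library (adjusted p = 0.0695 and 0.0651). Of 6 genes for collagen cleavage and uptake, MMP1 fell and none rose (median 0.05). MMP1, a collagenase that cuts fibrils, had 1.46 and 2.53 CPM in shZMYND8, against 5.83 and 10.5 CPM in shLuciferase (-2.03 ± 0.33, 4.09-fold lower, adjusted p = 0.00374).

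Of 6 collagen receptor genes tested, 3 rose (ITGA2, ITGA11 and DDR1) and none fell (median 0.40). ITGA2, the alpha subunit of an integrin of epithelial cells that binds collagen, had 247 and 254 CPM in shZMYND8, against 144 and 114 CPM in shLuciferase (0.96 ± 0.14, adjusted p = 0.00237). Of 13 basement membrane partners of collagen IV tested, 7 rose (LAMA1, LAMB1, LAMB3, LAMC1, NID1, NID2 and HSPG2) and none fell (median 0.47). These are laminin chains, the nidogens that link laminin to collagen IV, and perlecan. HSPG2, which encodes perlecan, had 167 and 172 CPM in shZMYND8, against 84.1 and 91.1 CPM in shLuciferase (0.95 ± 0.11, 1.93-fold, adjusted p = 0.000899). Of 10 proteoglycans and organisers of fibrils, 2 were tested and TNXB rose (median 0.55, adjusted p = 0.0336). The TNXB call was lost with DESeq2 (adjusted p = 0.0622), with no filter (0.0508), with only the 2 groups compared (0.0572) and without any 1 library except shLuciferase replicate 1 (0.0524 to 0.232). Without either shZMYND8 library fewer genes rose in each of the lists that had any, and fewer of all genes tested rose as well.

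**Figure D4:**
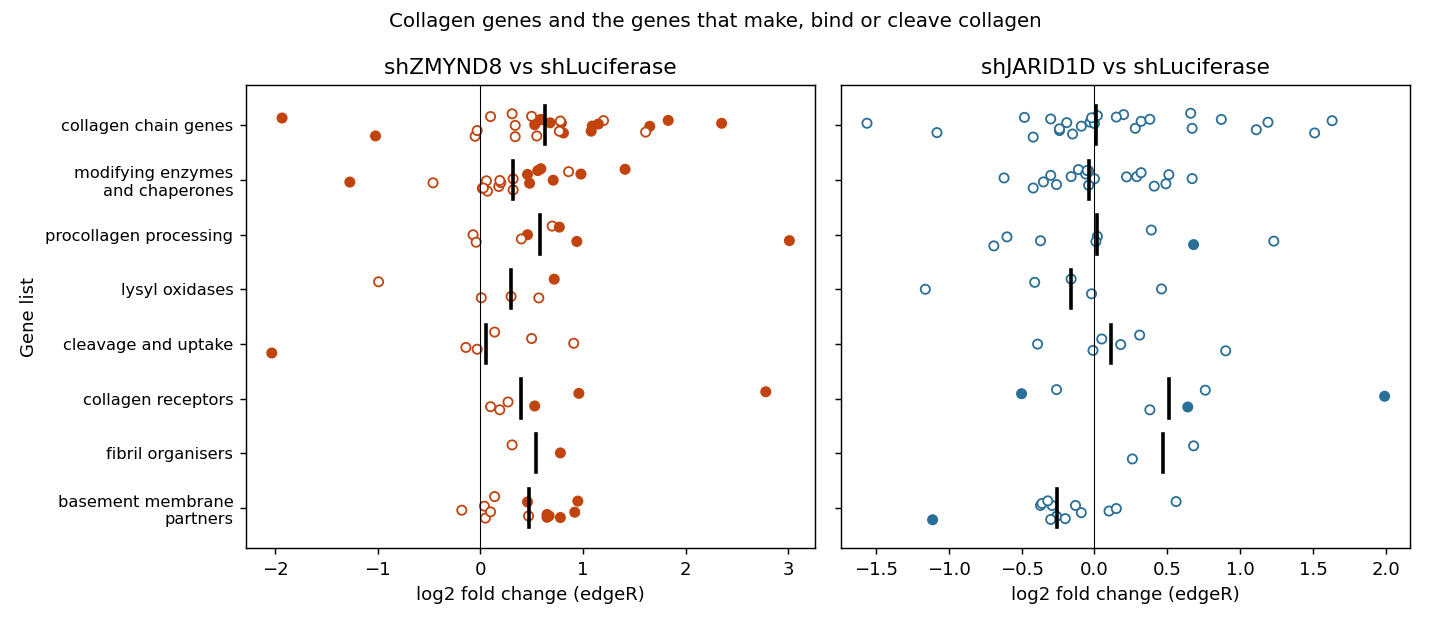
Log2 fold changes (horizontal axis) of the collagen chain genes and of the pathway genes tested, with a row for each list, in shZMYND8 and in shJARID1D, each against shLuciferase. Points are genes, filled where the adjusted p was under 0.05, and black bars are list medians, 0.64 for the collagen chain genes in shZMYND8 and 0.01 in shJARID1D. The collagen medians include COL3A1, COL10A1 and COL24A1, which reached the filter level in both libraries of shZMYND8 only.

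In shJARID1D, 3 of the 59 pathway genes tested rose (5.08%, against 2.96% of all genes) and 2 fell (3.39%, against 2.79%), shares near those of all genes. FURIN, a protease that activates other secreted proteins, had 44.7 and 52.1 CPM in shJARID1D, against 27.1 and 33.2 CPM in shLuciferase (0.68 ± 0.14, adjusted p = 0.0257). DDR1, a receptor tyrosine kinase for collagen, had 106 and 99.5 CPM in shJARID1D, against 59.6 and 72.0 CPM in shLuciferase (0.64 ± 0.13, adjusted p = 0.0234). The receptor subunit ITGA11 also rose (1.99 ± 0.46, adjusted p = 0.0384). PXDN, a peroxidase that cross-links collagen IV, fell to 8.87 and 12.8 CPM in shJARID1D, against 19.9 and 26.8 CPM in shLuciferase (-1.11 ± 0.21, 2.15-fold lower, adjusted p = 0.0213). ITGB1, the beta subunit shared by the collagen-binding integrins, had 1284 and 1312 CPM in shJARID1D, against 1967 and 1702 CPM in shLuciferase (-0.50 ± 0.12, adjusted p = 0.0434). Without either shJARID1D library none of these 5 genes passed, and without either shZMYND8 library PXDN alone did. With library totals as the only scaling, 70.7% of the genes called in shJARID1D over the whole table were higher, against 51.4% with the scaling used here and 61.7% with upper quartile scaling.

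RefSeq windows were found for 8 of the 11 collagen genes that rose in shZMYND8. The GC box letters GGGCGG stood in 6 of these 8, in a window of 21 of all 32 collagen genes with any (44 windows) and in 45% of all windows. They also stood in 9 of the 11 tested genes with a window that did not pass, and in 0 of the 2 that fell. A gene was counted if any of its windows held the letters, so gene counts and shares of windows are unlike measures. COL4A1 and COL4A2 were counted as separate genes although their windows overlap. CCAAT stood in 3 of the 8, in 12 of the 32 and in 34.6% of all windows, and in 3 of the 11 that did not pass and 1 of the 2 that fell (COL4A5). TATAAA stood in 3 of the 8 (COL6A2, COL17A1 and COL18A1), in 7 of the 32 and in 11.5% of all windows. It also stood in 2 of the 11 that did not pass and in 1 of the 2 that fell (COL13A1). The AP-1 letters TGACTCA stood in none of the 32 genes' windows and in 4.95% of all windows.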

How the data were processed

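RNA sequencing of 6 DU145 libraries was analysed, 2 per group, and the 29 ChIP and input samples of the series were not used here. The deposited values are expected counts per gene and library, fragment counts estimated by the authors' software, in a Cuffdiff count-tracking table per the file headers. Per the submitters' processing notes, the tools were edgeR 3.12.0, Cuffdiff, Bowtie 1.1.2 and TopHat2 2.0.12 and the build was hg19, with no role stated for each. No source used here gives the annotation or strandedness. A scaling is built into the deposited counts, with 1 fragment worth 0.8815 to 1.16, and 84% to 84.9% of values under 1000 became whole (within 0.05) once it was undone. The deposited status marks (other) served to leave out 60 genes marked HIDATA, none of them collagen, and 18 variance columns were not used.

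Expected counts were rounded and tested in R 4.3.3 with the quasi-likelihood test of edgeR 4.0.16 (trimmed mean of M values scaling, filterByExpr on the group, all 6 libraries in 1 fit, no replicate block). Adjusted p-values are Benjamini-Hochberg over 15867 genes with a threshold of 0.05. The fit had 3 residual and 6.8 prior degrees of freedom. Standard errors (SE) were derived from the fit, as the absolute log2 fold change divided by the square root of the F statistic of its test. Tested on simulated data of 15644 genes for the shZMYND8 comparison, edgeR found 78 of 97 genes changed 2-fold and 95 of 98 changed 4-fold, with 10 calls among unchanged genes. The simulation gave every gene the same spread, a biological coefficient of variation of 12.3%. It does not show the recovery of genes with a wider spread.

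The collagen genes and the pathway and marker lists were chosen with earlier results of these data known. Values in every library are given for collagen genes past the threshold or with a mean count of 100 or more, and up to 4 genes of each pathway list with the smallest adjusted p were eligible to be named, of which examples are given. COL3A1, COL7A1 and COL24A1 were also given values, chosen after these were seen. Of the receptor list, 8 of 9 symbols matched. Lists were described by counts and medians, with no set test. Alternatives were relative log expression, upper quartile and library totals scaling, a mean count of at least 50, no filter, voom of limma 3.58.1, DESeq2 1.42.0, only the groups compared, a replicate block, genes marked HIDATA kept at 0, the deposited scaling undone, each library left out, a log2 fold change of at least 1 and an adjusted p of 0.01. The pathway lists were run under them as an addition after seeing the data. Tables and figures were made with matplotlib 3.10.9, pandas 2.3.3 and numpy 2.4.6 in Python 3.11.15.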

Additional observations from a re-analysis of the deposited data

How the results depend on the processing

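The number of collagen genes higher in shZMYND8 than in shLuciferase, 11 as reported, was 5 to 13 over the fits that left out a library, 7 at an adjusted p of 0.01 and 6 with a log2 fold change of at least 1. The number lower, 2 as reported, was 0 to 2 without a library, 1 with upper quartile scaling, library totals, no filter, limma voom, HIDATA genes kept at 0 or only the 2 groups compared, and 0 with a mean count of at least 50 (which leaves COL4A5 out) or an adjusted p of 0.01. For shJARID1D against shLuciferase, 0 each way as reported, the number higher was 0 to 1 without a library, 2 with library totals or DESeq2 and 1 with a mean count of at least 50, and the number lower was 0 to 2 without a library. For shZMYND8 against shJARID1D, the number higher (11) was 5 to 12 without a library, 6 at an adjusted p of 0.01 and 6 with a log2 fold change of at least 1. The number lower (1) was 0 to 2 without a library, 2 with library totals, DESeq2 or only the 2 groups compared, and 0 with a mean count of at least 50 or an adjusted p of 0.01. The cause was not tested. A lone library left in a group was assumed to vary like the other groups. In the fits without 1 library of a knockdown compared, fewer of all genes tested passed as well.

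The pathway lists, run under these alternatives after seeing the data, gave 23 genes higher in shZMYND8 than in shLuciferase (8 to 23 without a library) and 20 higher in shZMYND8 than in shJARID1D (8 to 25), with 2 lower in the second (2 to 3). Of the 59 pathway genes tested, 39% were higher in shZMYND8 than in shLuciferase, against 8.89% of all genes. For shZMYND8 over shJARID1D the share was 33.9%, against 8.67% of all genes. Both counts include ADAMTS2, which entered the test only through shZMYND8. Without ADAMTS2 and ADAMTS3 they were 22 and 19 of 57. In shJARID1D against shLuciferase, 3 were higher (0 to 6 without a library, 6 with library totals or DESeq2, 0 without a filter, 1 with only the 2 groups compared). There 2 were lower (0 to 5 without a library, 0 without a filter, and 1 with upper quartile scaling, library totals, a mean count of at least 50, HIDATA genes kept at 0 or only the 2 groups compared). Over all genes, 912 passed in shJARID1D, 1359 with DESeq2, 204 without a filter, 449 with only the 2 groups compared, 16 and 22 without shJARID1D replicate 1 and 2, and 2145 without shLuciferase replicate 1.

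The replicate block gave 2 collagen genes higher and 1 lower in shJARID1D against shLuciferase, 2 lower in shZMYND8 against shJARID1D, and 7 pathway genes higher and 6 lower in shJARID1D. Over all genes it called 3699 in shZMYND8 (2574 without it), 2073 in shJARID1D (912) and 3785 between the knockdowns (2490). Libraries with the same number correlated at 0.092 to 0.17 in their deviations, and with 2 numbers these were not taken as pairs.

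Among the genes whose values were recomputed, those below changed sign, and none of them had passed the threshold in the reported fit. In shJARID1D against shLuciferase, COL13A1 had a log2 fold change of 0.01 with upper quartile scaling, 0.06 with library totals, 0.03 with limma voom and 0.02 with the replicate block (-0.41 to 0.47 without a library). COL4A3 had 0.04 with upper quartile scaling, 0.09 with library totals, 0.02 with a mean count of at least 50 and 0.00 with limma voom (-0.12 to 0.12 without a library). COL6A2 had 0.03, 0.07 and 0.00 under the same scalings and that count (-0.15 to 0.12). Leaving out a library turned COL12A1 (-0.00 to 0.29), COL18A1 (-0.41 to 0.06), COL1A1 (-0.08 to 1.19), COL27A1 (-0.38 to 0.57) and COL4A2 (-0.48 to 0.04) there, COL12A1 (-0.10 to 0.27) and KDM5D (-0.11 to 0.01) in shZMYND8 against shLuciferase, and COL12A1 (-0.25 to 0.12) and COL14A1 (-0.85 to 0.16) between the knockdowns.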
